A study of Mus musculus with 16 samples.

Results

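The miR-30 family was followed on miRNA microarrays of the lateral ventricle (LV) wall as 9 mature miRNAs. The 9 were picked by their name in the arrays' annotation and not by a filter on their values, but with earlier results of these data known. They were 9 of the 1881 mouse miRNAs on the array. The 5p arms were mmu-miR-30a-5p, mmu-miR-30b-5p, mmu-miR-30c-5p, mmu-miR-30d-5p and mmu-miR-30e-5p, and the 3p arms were mmu-miR-30a-3p, mmu-miR-30c-2-3p, mmu-miR-30d-3p and mmu-miR-30e-3p. The LV wall is the tissue along the fluid-filled ventricle of the brain and carries the ciliated ependymal cells among several other cell types. Total RNA came from male mice aged 8 months, 8 of them WT and 8 Dgcr8+/-, and each array held 1 mouse. The WT mice were littermates, and the Dgcr8+/- mice were heterozygous for a loss of Dgcr8 in the germline, and the strain had been back-crossed onto C57BL/6J. The study ran these arrays to find miRNAs that change when Dgcr8 is reduced. A miRNA array has no probe for the Dgcr8 mRNA, so the genotype labels could not be checked against their target here.

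A miRNA is cut from a hairpin in a longer primary transcript by the Microprocessor, in which Dgcr8 binds the hairpin and Drosha cuts it. Each hairpin holds a 5p and a 3p arm, and the arm that is loaded into an Argonaute protein pairs with target mRNAs mainly through its seed, bases 2 to 8. The miR-30 hairpins lie in pairs in the genome and are broadly expressed, also in brain, and their 5p arms are commonly the guide strands.

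In the RefSeq gene table, Mir30a and Mir30c-2 lie on chromosome 1, Mir30e and Mir30c-1 lie on chromosome 4 within the span of the protein-coding gene Nfyc, and Mir30b and Mir30d lie on chromosome 15. The mature sequences of 6 of the 9 members were matched by name in RefSeq (build GRCm38.p6). They are shown 5′ to 3′ because the comparison between loci turns on miRNAs that are nearly identical, and capitals mark the seed. MiR-30a-5p lies at chr1:23272274-23272295 (plus strand) and miR-30a-3p at chr1:23272315-23272336 (plus strand), while miR-30e-5p lies at chr4:120772660-120772681 (minus strand) and miR-30e-3p at chr4:120772618-120772639 (minus strand). MiR-30c-2-3p lies at chr1:23291754-23291775 (plus strand). MiR-30c-5p can come from Mir30c-2 at chr1:23291714-23291736 (plus strand) or from Mir30c-1 at chr4:120769584-120769606 (minus strand), so its signal cannot be assigned to a locus.
miR-30a-5p: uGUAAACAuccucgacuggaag
miR-30e-5p: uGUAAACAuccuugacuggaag
miR-30c-5p: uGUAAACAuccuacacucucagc
miR-30a-3p: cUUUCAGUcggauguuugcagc
miR-30e-3p: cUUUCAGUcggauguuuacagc
miR-30c-2-3p: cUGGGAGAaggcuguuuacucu

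The 3 matched 5p members shared the seed GUAAACA, and miR-30a-3p and miR-30e-3p shared UUUCAGU. Counted from 1 at the 5′ end, miR-30a-5p and miR-30e-5p differed at 1 of 22 bases (C13U, miR-30a-5p first), and miR-30a-3p and miR-30e-3p also differed at 1 of 22 bases (G18A, miR-30a-3p first). The annotated hairpins that hold these arms, shown because the hairpin is what the Microprocessor reads, differ in the bases of their loops. Most of the difference in their annotated length lies in flanking bases outside the arms and the loop. Capitals mark the 5p and 3p arms in the 71 bases of Mir30a (chr1:23272269-23272339, plus strand) and the 92 bases of Mir30e (chr4:120772606-120772697, minus strand).
Mir30a: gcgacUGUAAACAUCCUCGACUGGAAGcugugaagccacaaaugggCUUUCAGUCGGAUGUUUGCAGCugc
Mir30e: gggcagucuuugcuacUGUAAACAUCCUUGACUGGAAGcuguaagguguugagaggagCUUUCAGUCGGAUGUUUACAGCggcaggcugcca

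Values are log2 of the background-corrected fluorescence signal after quantile normalization, which forces all arrays onto a common distribution, so each difference is relative to the rest of the array. Genotypes were compared with limma over the 495 miRNAs detected on at least 8 of the 16 arrays, and adjusted p-values are Benjamini-Hochberg values over all 495. The raw summed signal ranged from 21545358 to 29763412 in WT mice and from 18528866 to 23440575 in Dgcr8+/- mice, and 495 to 540 miRNAs were detected in WT mice against 467 to 492 in Dgcr8+/- mice. The arrays lay on 2 slides, each scanned in 1 session, with 6 WT and 2 Dgcr8+/- arrays on slide 1 and 2 WT and 6 Dgcr8+/- arrays on slide 2. The hybridisation spike-ins were lowest in Dgcr8+/- replicate 2 (12.7 on the log2 scale) and highest in WT replicate 6 (15.1). No spot was saturated, and no pair of arrays was identical. Of 23 marker miRNAs of the cell types in this tissue, 22 were detected on all arrays, including 5 of 6 of the ciliated cell list, while miR-449c-5p was detected on none. With quantile normalization 3 of the 22 tested markers were lower in Dgcr8+/- mice and 3 higher, against 27.9% and 28.3% of all tested miRNAs. Of the 7 lists, choroid plexus had a summed quantile-normalized signal of 533 to 733 in WT mice and 403 to 624 in Dgcr8+/- mice. The ciliated cell list leaned the other way, at 542 to 1287 in WT mice and 869 to 1569 in Dgcr8+/- mice. The summed microglia and immune list was 126 to 157 and 105 to 143, and the part of any list in the results was not tested. In this bulk tissue, fewer cells of a type and less RNA per cell cannot be told apart.

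All 9 members passed the detection filter, and 8 were detected on all 16 arrays. MiR-30d-3p was detected in 7 WT and 5 Dgcr8+/- mice. With quantile normalization, 1 member (miR-30e-5p) was lower in Dgcr8+/- mice and 4 (miR-30a-5p, miR-30a-3p, miR-30b-5p and miR-30d-5p) were higher, whereas without normalization between arrays all 9 were lower. Over all tested miRNAs, 27.9% were lower and 28.3% were higher, so genotype differences past the threshold were common. The log2 fold changes of the members ranged from −0.18 to 0.25 with a median of 0.05, against a median of 0.04 and quartiles of −0.27 and 0.27 over all 495. The members varied little between mice, with a median within-genotype SD of 0.056 on the log2 scale against 0.178 over all tested miRNAs. The dim miR-30d-3p had an SD of 0.12 in WT and 0.23 in Dgcr8+/- mice. Spread was not compared with miRNAs of like brightness. In 1 member (miR-30e-5p) every Dgcr8+/- mouse lay below every WT mouse, as in 17.2% of tested miRNAs, and in 2 members (miR-30a-5p and miR-30d-5p) every Dgcr8+/- mouse lay above every WT mouse, as in 7.07%. Among the 5p arms, 1 was lower, 3 were higher and miR-30c-5p passed neither threshold. Among the 3p arms, only miR-30a-3p passed the threshold with quantile normalization.

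**Figure D1:**
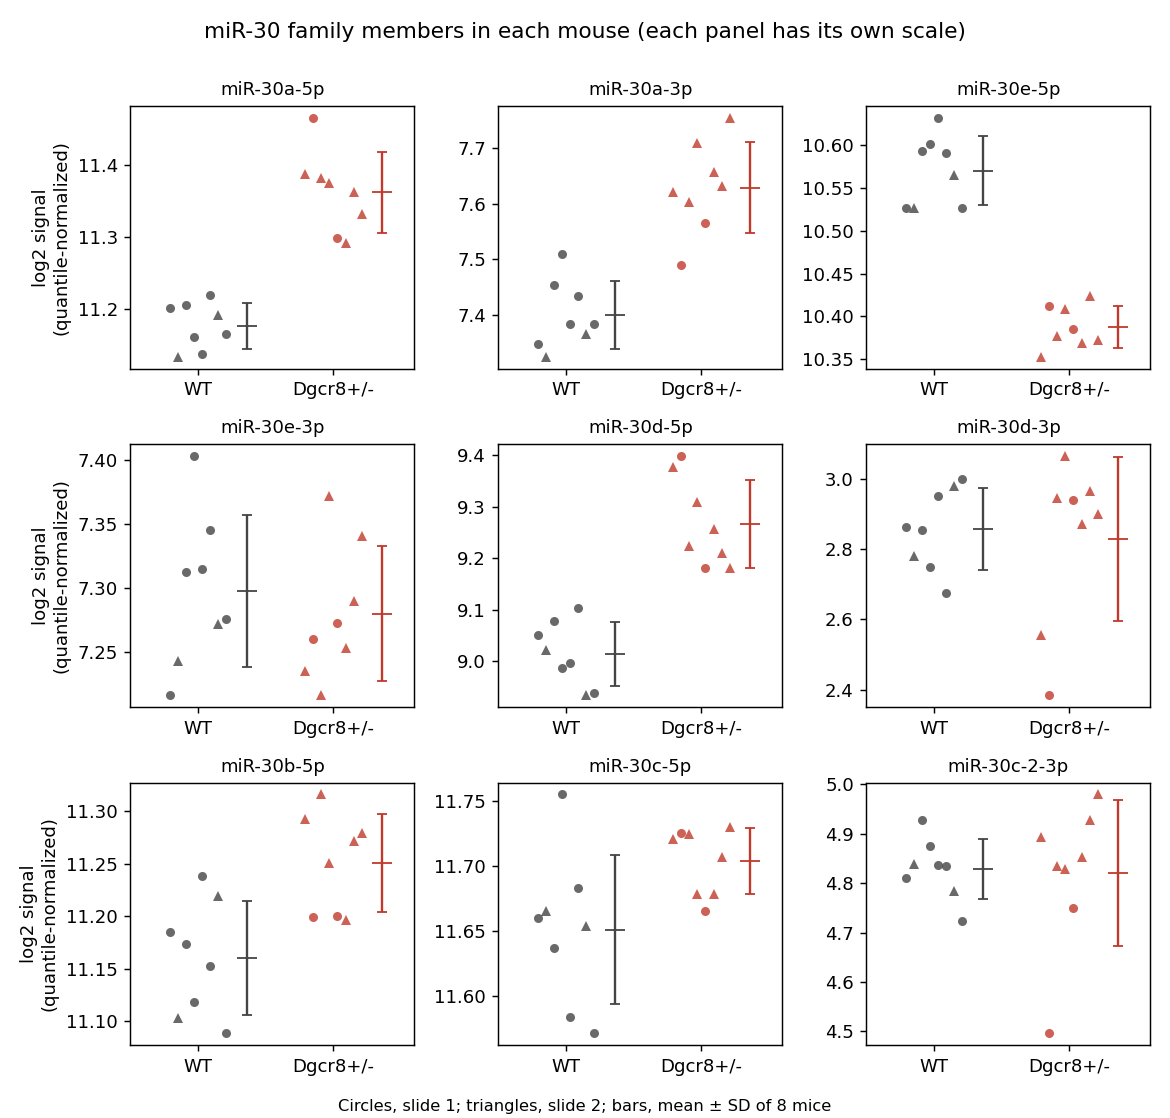
Quantile-normalized log2 signal of each member in each mouse (vertical axis, own scale per panel) for 8 WT and 8 Dgcr8+/- mice, with circles for slide 1, triangles for slide 2 and bars for the mean ± SD. The genotypes do not overlap for miR-30a-5p, miR-30d-5p and miR-30e-5p, with Dgcr8+/- mice higher for miR-30a-5p and miR-30d-5p on this scale (both were lower without normalization between arrays) and lower for miR-30e-5p.

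MiR-30e-5p, the 5p arm of Mir30e on chromosome 4, was the only member called lower with quantile normalization, against 9 without normalization between arrays. Its log2 signal was 10.53 to 10.63 in WT mice (median 10.58) and 10.35 to 10.42 in Dgcr8+/- mice (median 10.38). The highest Dgcr8+/- mouse thus lay below the lowest WT mouse. The log2 fold change was −0.18 (SE 0.03, 95% CI −0.25 to −0.12, adjusted p = 0.000155 from limma), which is a signal 11.9% lower. The difference was −0.18 on slide 1 and −0.16 on slide 2. Its direction held under each of the 5 scalings compared, and it was −0.67 without normalization between arrays. When spots with an outlier mark were kept, the log2 fold change was −0.17 and no longer passed the threshold (adjusted p = 0.0853 from limma), and in the deposited table of total signals it was −0.12 (adjusted p = 0.00817).

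MiR-30e-3p, from the other arm of the same hairpin, did not pass the threshold with quantile normalization. Its log2 signal was 7.22 to 7.40 in WT mice (median 7.29) and 7.22 to 7.37 in Dgcr8+/- mice (median 7.27), so the genotypes overlapped over nearly their whole range. The log2 fold change was −0.02 (SE 0.04, 95% CI −0.10 to 0.06, adjusted p = 0.716 from limma). Without normalization between arrays it was −0.55 and passed the threshold (adjusted p = 0.000438 from limma), where the median of all tested miRNAs was −0.39. With the labelling spike-ins it was −0.54 (adjusted p = 0.00125 from limma).

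MiR-30a-5p, from chromosome 1, differs from miR-30e-5p at a single base and moved the other way on the quantile-normalized scale. Its log2 signal was 11.13 to 11.22 in WT mice (median 11.18) and 11.29 to 11.47 in Dgcr8+/- mice (median 11.37), and the genotypes did not overlap. With quantile normalization it was higher by 0.19 on the log2 scale (SE 0.03, 95% CI 0.11 to 0.26, adjusted p = 0.000295 from limma), or 13.7%, but without normalization it was lower by the same test, with a log2 fold change of −0.32. The difference was 0.20 on slide 1 and 0.19 on slide 2. In the deposited table of total signals, quantile-normalized in the same way, it was 0.07 and did not pass the threshold (adjusted p = 0.116 from limma).

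MiR-30a-3p, its partner arm, was 7.32 to 7.51 in WT mice (median 7.38) and 7.49 to 7.75 in Dgcr8+/- mice (median 7.63). Of the 8 Dgcr8+/- mice, 7 lay above every WT mouse, and replicate 2 was the exception. With quantile normalization miR-30a-3p was higher by 0.23 (SE 0.04, 95% CI 0.14 to 0.32, adjusted p = 0.000305 from limma), whereas without normalization its log2 fold change was −0.30. The size differed between slides, 0.11 on slide 1 and 0.32 on slide 2, and with the slide as a block it was 0.21 (adjusted p = 0.00212).

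MiR-30d-5p, from chromosome 15, had the highest log2 fold change of the 9 members, with and without normalization. The log2 signal of this arm was 8.93 to 9.10 in WT mice (median 9.01) and 9.18 to 9.40 in Dgcr8+/- mice (median 9.24), without overlap. With quantile normalization it was higher by 0.25 (SE 0.04, 95% CI 0.16 to 0.35, adjusted p = 0.000155 from limma), or 19.2%, and without normalization its log2 fold change was −0.24. The difference was 0.26 on slide 1 and 0.28 on slide 2. MiR-30d-3p was the dimmest member, at 2.68 to 3.00 in WT mice (median 2.86) and 2.38 to 3.07 in Dgcr8+/- mice (median 2.92). Its log2 fold change was −0.03 (SE 0.09, 95% CI −0.22 to 0.16, adjusted p = 0.808 from limma).

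MiR-30b-5p shares the chromosome 15 locus with miR-30d-5p. The log2 signal was 11.09 to 11.24 in WT mice (median 11.16) and 11.20 to 11.32 in Dgcr8+/- mice (median 11.26), and 5 of 8 Dgcr8+/- mice lay above every WT mouse. With quantile normalization it was higher by 0.09 (SE 0.04, 95% CI 0.01 to 0.17, adjusted p = 0.0417 from limma), and without normalization its log2 fold change was −0.39. This call was near the threshold. It was lost with the slide as a block (0.07, adjusted p = 0.152 from limma), in the deposited table (0.03, adjusted p = 0.451), with outlier marks kept (0.12, adjusted p = 0.277), with the brightest probe (0.06, adjusted p = 0.247) and with the replicate block (0.09, adjusted p = 0.0683). Likewise, without any of WT replicates 2, 3, 4, 6 and 8 or Dgcr8+/- replicates 1, 3, 4, 7 and 8 the adjusted p was 0.0535 to 0.0858, with log2 fold changes of 0.08 to 0.09.

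MiR-30c-5p, the 5p arm made from both Mir30c loci, was 11.57 to 11.75 in WT mice (median 11.66) and 11.67 to 11.73 in Dgcr8+/- mice (median 11.71). All Dgcr8+/- mice lay within the WT range. The log2 fold change was 0.05 (SE 0.03, 95% CI −0.02 to 0.13, adjusted p = 0.198 from limma). MiR-30c-2-3p, from the chromosome 1 locus, was 4.72 to 4.93 in WT mice (median 4.84) and 4.50 to 4.98 in Dgcr8+/- mice (median 4.84), with a log2 fold change of −0.01 (SE 0.06, 95% CI −0.13 to 0.12, adjusted p = 0.908 from limma). Without normalization both were lower, with log2 fold changes of −0.42 and −0.37. With scaling to the 75th percentile both were higher, by 0.12 and 0.16 (adjusted p = 0.0158 and 0.00388 from limma), and with a normexp background correction miR-30c-5p was higher by 0.05 (adjusted p = 0.0476).

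**Figure D2:**
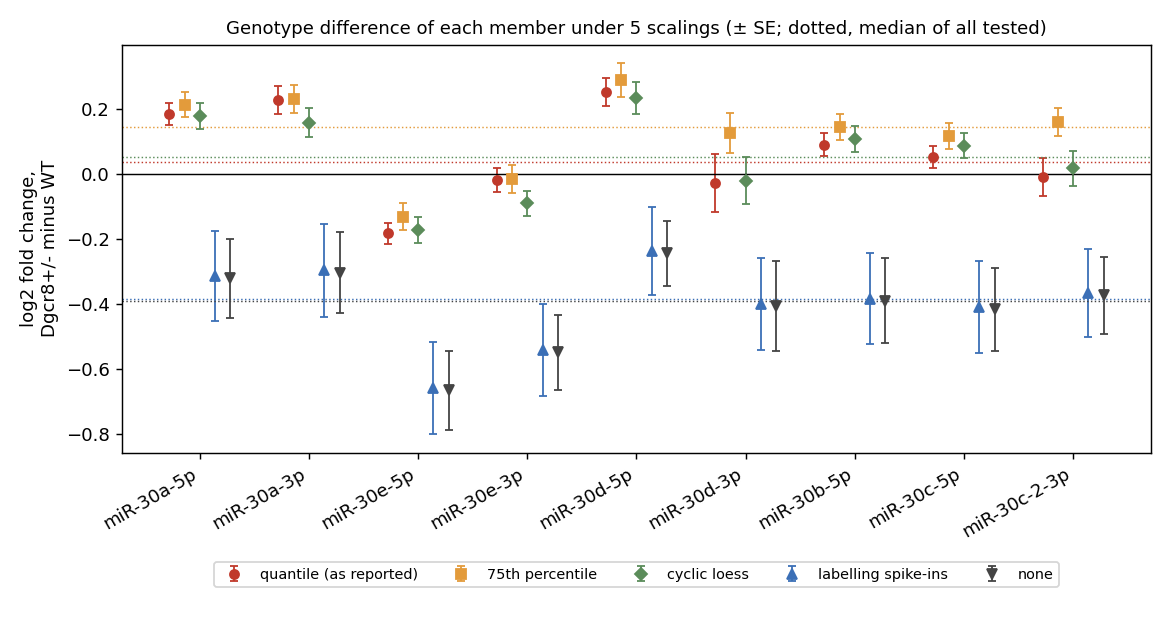
Log2 fold change (Dgcr8+/- minus WT, vertical axis) of each member under 5 ways of scaling the arrays, with bars for the SE and dotted lines for the median of all 495 tested miRNAs under each scaling. All members lie below 0 without normalization or with labelling spike-ins. Under each of the 5, miR-30e-5p lies below the median and miR-30d-5p above it. Percentile scaling and labelling spike-ins change each array by a common factor, which shifts every member and the median alike. For distances from the median, these scalings therefore repeat the result without normalization and are not further checks.

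The sign of most members changed with the scaling. The median log2 fold change over all tested miRNAs was −0.39 without normalization and −0.38 with the labelling spike-ins, against 0.04 with quantile normalization, 0.05 with cyclic loess and 0.14 with scaling to the 75th percentile. Without normalization 293 of the 495 tested miRNAs were lower and 0 were higher by limma, and with the labelling spike-ins 264 and 0, against 138 and 140 with quantile normalization. With the 75th percentile, 126 were lower and 210 higher. The members followed, with 9 lower and 0 higher without normalization, 6 and 0 with the labelling spike-ins, 1 and 6 with the 75th percentile and 1 and 4 with cyclic loess. Relative to the median of all tested miRNAs, miR-30e-5p was at −0.22 with quantile normalization and −0.28 without normalization. MiR-30d-5p was above that median by 0.22 and 0.15, miR-30a-5p by 0.15 and 0.07 and miR-30a-3p by 0.19 and 0.09.

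Each member was measured by 2 to 4 probes with 7 to 15 spots each, 21 probes in all. The probes were compared one by one, because a member's value is their mean. With quantile normalization all 3 probes of miR-30a-5p were higher in Dgcr8+/- mice (0.20, 0.20 and 0.17 on the log2 scale), as were both of miR-30d-5p (0.25 and 0.26) and both of miR-30a-3p (0.25 and 0.22). Both probes of miR-30e-5p were lower (−0.14 and −0.20), and the brighter of them separated the genotypes. The probes of miR-30c-2-3p, miR-30d-3p and miR-30e-3p differed in sign, so 3 of the 9 members had no common direction over their probes. How far a probe for a 5p or 3p member also binds the member of the same arm that differs by 1 base was not tested.

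**Figure D3:**
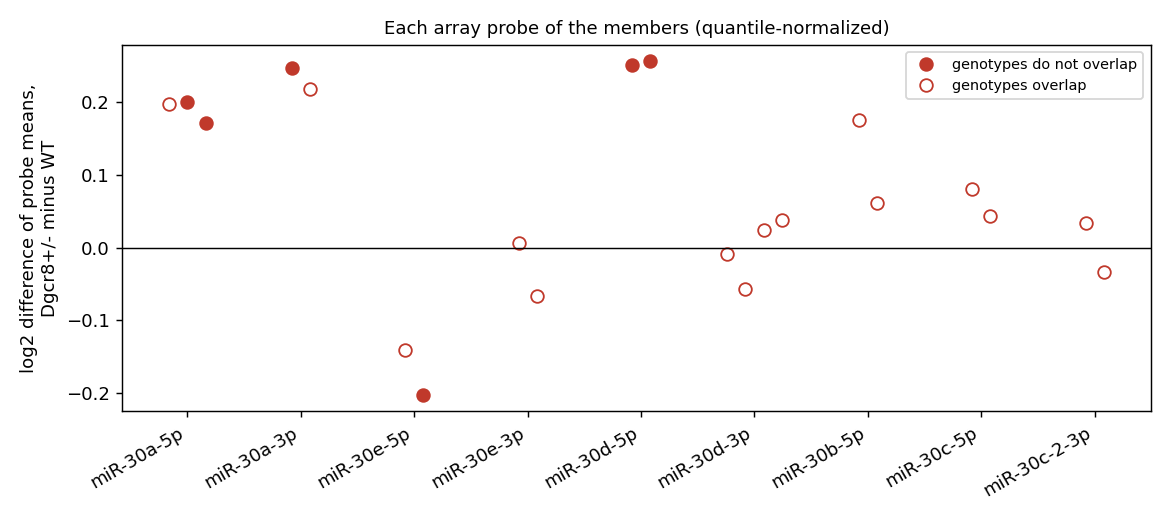
Difference between the genotype means (Dgcr8+/- minus WT, log2 scale, quantile-normalized) of each of the 21 probes of the members, filled where no Dgcr8+/- mouse overlaps a WT mouse. Both probes of miR-30e-5p lie below 0 and all probes of miR-30a-5p, miR-30a-3p and miR-30d-5p lie above it on this scale, while without normalization between arrays all 4 members were lower.

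To compare loci and arms, 11 pairs of members were subtracted on the log2 scale within each array, where a scale factor common to the array drops out. Quantile normalization, applied beforehand, is not such a factor, so the differences still depend on it. The level of such a difference also reflects how the probes respond, so only its change between genotypes is compared. Exact p-values are 2-sided permutation tests over the 12870 groupings of the mice, adjusted over the 11 pairs. Of the 11 pairs, 8 passed the threshold (5 without normalization between arrays) and 4 separated the genotypes without overlap. Pairs that share a member are not independent. Genotypes did not overlap in 23.8% of all 122265 pairs of tested miRNAs. The unadjusted exact permutation p was below the threshold in 61.2% of those pairs and in 8 of the 11. Adjusted over all 122265 pairs, a correction added after seeing the data, 56.9% passed, and 7 of the 11 did, without miR-30a-5p minus miR-30d-5p.

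MiR-30a-5p minus miR-30e-5p, the near-identical 5p arms of chromosomes 1 and 4, was 0.51 to 0.67 in WT mice (median 0.62) and 0.91 to 1.05 in Dgcr8+/- mice (median 0.96). The ratio of their signals was thus higher in every Dgcr8+/- mouse, by 0.37 on the log2 scale (SE 0.03, exact permutation p = 0.000155, adjusted p = 0.000427), or 1.29-fold. This p is the smallest that 8 mice against 8 can give. With quantile normalization it followed from the members, as miR-30a-5p was above every WT mouse and miR-30e-5p below. The separation of this pair is therefore not a further test. The change was 0.38 on slide 1 and 0.35 on slide 2, and 0.34 without normalization between arrays. In the deposited table of total signals it was 0.19 (adjusted exact permutation p = 0.00057).

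MiR-30d-5p minus miR-30e-5p was −1.64 to −1.48 in WT mice (median −1.55) and −1.21 to −0.98 in Dgcr8+/- mice (median −1.13), again without overlap. It was higher by 0.44 in Dgcr8+/- mice (SE 0.04, exact permutation p = 0.000155, adjusted p = 0.000427), or 1.35-fold, and the change was 0.44 on both slides. This separation and its p likewise followed from the members, which each separated the genotypes in opposite directions. The pair shares miR-30e-5p with the pair above. Among the 3p arms, miR-30a-3p minus miR-30e-3p was 0.07 to 0.14 in WT mice (median 0.10) and 0.23 to 0.41 in Dgcr8+/- mice (median 0.36). It was higher by 0.25 (SE 0.02, exact permutation p = 0.000155, adjusted p = 0.000427), with 0.15 on slide 1 and 0.29 on slide 2. The 3p arms of Mir30a and Mir30e thus differed between genotypes in the same direction as the 5p arms of these hairpins. With quantile normalization both arms of Mir30a were higher, while of Mir30e only the 5p arm passed the threshold, whereas without normalization all 4 arms were lower.

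The arms of Mir30e shifted against each other. MiR-30e-5p minus miR-30e-3p was 3.20 to 3.32 in WT mice (median 3.28) and 3.03 to 3.16 in Dgcr8+/- mice (median 3.12), and no Dgcr8+/- mouse reached the lowest WT mouse. The change was −0.16 (SE 0.02, exact permutation p = 0.000155, adjusted p = 0.000427), with −0.13 on slide 1 and −0.19 on slide 2. In a limma fit over the 80 hairpins with both arms tested, it was past the threshold (adjusted p = 0.00638), as for 17.5% of these hairpins. This result depended on how spots were summarised. It was −0.09 when spots with an outlier mark were kept (adjusted exact permutation p = 0.277) and −0.04 in the deposited table of total signals (adjusted p = 0.422).

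The shift between the arms of Mir30a did not pass the threshold with the main processing. MiR-30a-5p minus miR-30a-3p was 3.65 to 3.85 in WT mice and 3.58 to 3.98 in Dgcr8+/- mice, a change of −0.04 (SE 0.05, exact permutation p = 0.386, adjusted p = 0.425). It was 0.09 on slide 1 and −0.12 on slide 2, and in the deposited table of total signals it was −0.11 and passed the threshold (adjusted exact permutation p = 0.0139). For Mir30d the 5p arm minus the 3p arm was 5.94 to 6.43 in WT mice and 6.24 to 7.01 in Dgcr8+/- mice, with overlap. It was higher by 0.28 (SE 0.12, exact permutation p = 0.0236, adjusted p = 0.0371). On the 4 arrays where miR-30d-3p was not detected, WT replicate 6 and Dgcr8+/- replicates 1, 2 and 6, this difference was 6.43, 6.82, 7.01 and 6.38, the highest values of their genotypes. There it was taken against a signal not above background, so its size on those arrays is not a measured value. It was 0.16 without normalization (adjusted exact permutation p = 0.109) and −0.08 in the deposited table (adjusted p = 0.801). In the fit over the 80 hairpins it did not pass (adjusted p = 0.117 from limma), and without any of WT replicates 1, 3, 4, 5, 7 and 8 or Dgcr8+/- replicates 1, 2 and 6 the adjusted exact permutation p was 0.0541 to 0.0897, with changes of 0.20 to 0.29. MiR-30c-5p minus miR-30c-2-3p changed by 0.06 (SE 0.06, adjusted exact permutation p = 0.425), by 0.26 on slide 1 and −0.03 on slide 2, and by 0.12 in the deposited table, where it passed the threshold (adjusted exact permutation p = 0.00883).

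Within the chromosome 15 locus, miR-30b-5p fell relative to miR-30d-5p. The difference was 2.05 to 2.29 in WT mice (median 2.13) and 1.80 to 2.10 in Dgcr8+/- mice (median 1.98), a change of −0.16 (SE 0.05, exact permutation p = 0.00264, adjusted p = 0.00581) with overlap between genotypes. MiR-30a-5p minus miR-30d-5p changed by −0.07 (SE 0.03, adjusted exact permutation p = 0.0408). That call was lost in 7 of the 9 alternatives beside those that left out a single array. Among these, the 75th percentile repeats the result without normalization, as a factor per array drops out of a pair. The adjusted exact permutation p was 0.162 without normalization and with scaling to the 75th percentile, 0.0613 with normexp, 0.109 with outlier marks kept, 0.264 with the median of probes and 0.0633 without WT replicate 6 and Dgcr8+/- replicate 2, with changes of −0.08 to −0.05. With the slide as a block, which was added after seeing the data and uses limma, it was −0.08 (adjusted p = 0.064). In the deposited table the change was −0.21 (adjusted exact permutation p = 0.0065). The call was also lost without any of WT replicates 1, 4, 7 and 8 or Dgcr8+/- replicates 1, 2, 4, 5 and 6, where the adjusted exact permutation p was 0.053 to 0.0897 and the change −0.07 to −0.06. MiR-30a-3p minus miR-30d-3p was higher by 0.26 (SE 0.09, adjusted exact permutation p = 0.0188), and miR-30d-3p minus miR-30e-3p changed by −0.01 (SE 0.09, adjusted exact permutation p = 0.907). Both rest on the dim miR-30d-3p, with the same 4 arrays not above background. The first was 0.10 without normalization (adjusted exact permutation p = 0.195) and −0.18 in the deposited table of total signals (adjusted p = 0.591).

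**Figure D4:**
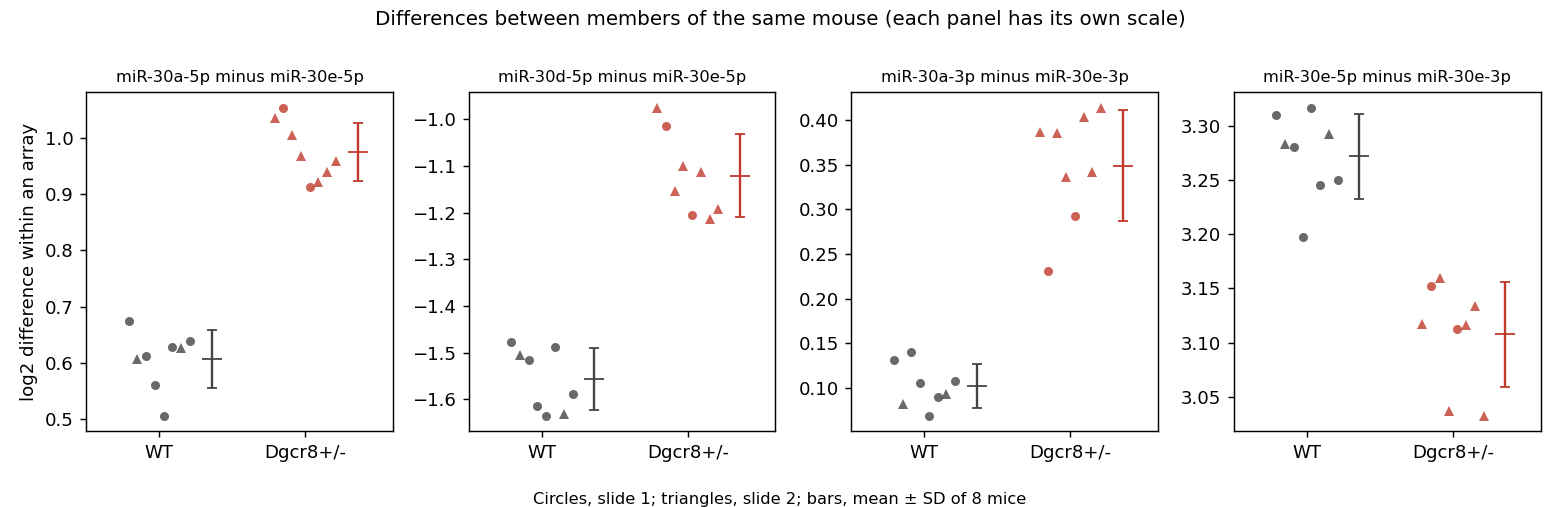
Log2 difference between members of the same array (vertical axis, own scale per panel) in 8 WT and 8 Dgcr8+/- mice, for the 4 pairs whose genotypes do not overlap, with circles for slide 1, triangles for slide 2 and bars for the mean ± SD. The first 3 differences are higher in every Dgcr8+/- mouse and miR-30e-5p minus miR-30e-3p is lower in every one, and these directions were also found without normalization between arrays.

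The arms of a hairpin were also compared between mice, after removing the genotype mean, over all 16 mice and 4 pairs. MiR-30e-5p and miR-30e-3p varied together (Pearson r = 0.62, permutation p = 0.0102, adjusted p = 0.0204, Spearman rho = 0.68, permutation p = 0.0051, adjusted p = 0.0147), and r was 0.71 without the 2 mice farthest from the median of miR-30e-5p. The call was lost without WT replicate 1 (r = 0.55, adjusted permutation p = 0.0697) and with a normexp background correction (r = 0.51, adjusted permutation p = 0.0907). It was also lost with the median of probes (r = 0.50, adjusted permutation p = 0.104). For miR-30d-5p and miR-30d-3p the r was negative (r = −0.75, permutation p = 0.00076, adjusted p = 0.00304, rho = −0.65, permutation p = 0.00736, adjusted p = 0.0147), with r = −0.50 without Dgcr8+/- replicates 2 and 1, the farthest mice. It includes the 4 arrays on which miR-30d-3p was not detected, these 2 among them, so it does not show that the arms varied in opposite directions. With scaling to the 75th percentile that r was −0.17 (adjusted permutation p = 0.532). For miR-30a the r was −0.26 (permutation p = 0.327, adjusted p = 0.436, rho = −0.05, permutation p = 0.867, adjusted p = 0.867) and 0.17 without the 2 farthest mice, but with scaling to the 75th percentile it was 0.69 and passed the threshold (adjusted permutation p = 0.00658). For miR-30c-5p and miR-30c-2-3p it was 0.17 (permutation p = 0.509, adjusted p = 0.509, rho = 0.30, permutation p = 0.251, adjusted p = 0.335) and −0.03 without the 2 farthest mice. With slide means removed as well, the same 2 of 4 pairs passed. Over the 80 hairpins with both arms tested, 38.8% passed the same test adjusted over all 80, among them those of miR-30d and miR-30e, and the unadjusted p was below the threshold in 47.5% of them and in 2 of the 4. These shares and the alternatives to this comparison were added after seeing the data.

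The array held 3 further miRNAs of this name. MiR-30c-1-3p, the 3p arm of the chromosome 4 locus, has the same seed as miR-30c-2-3p. Its log2 signal was 2.11 to 2.92 in WT mice (median 2.47) and 2.57 to 3.30 in Dgcr8+/- mice (median 2.76), and with quantile normalization it was higher by 0.38 (SE 0.13, adjusted p = 0.0167 from limma), while its log2 fold change was 0.01 without normalization. MiR-30b-3p was at 2.76 to 3.09 and 1.92 to 3.36, with a log2 fold change of 0.03 (SE 0.15, adjusted p = 0.906 from limma). It was detected in 5 WT and 6 Dgcr8+/- mice, and not in Dgcr8+/- replicate 2, which had the lowest value. MiR-30f, whose gene overlaps Mir30e on the other strand, was detected on 0 of 16 arrays. MiR-384-5p shares the seed GUAAACA with the 5p members but comes from another gene, on the X chromosome. Its log2 signal was 8.12 to 8.42 in WT mice (median 8.32) and 8.09 to 8.53 in Dgcr8+/- mice (median 8.28), and it did not pass the threshold (log2 fold change −0.03, SE 0.06, adjusted p = 0.752 from limma). MiR-6958-5p, which shares the seed of miR-30c-2-3p, was detected on 0 arrays.

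The miRNAs whose signal followed the family most closely between mice were named by their correlation over 16 arrays with the mean of the members after removing genotype means, as a description. For the 5 members of the 5p arm these were miR-23a-3p (r = 0.74), miR-1983 (r = 0.72) and miR-145a-5p (r = 0.72), none of which passed the genotype threshold in limma (adjusted p = 0.544, 0.241 and 0.131). For the 4 members of the 3p arm they were miR-505-5p (r = 0.94), miR-7a-1-3p (r = 0.92) and miR-126a-3p (r = 0.91). With quantile normalization the first 2 were lower in Dgcr8+/- mice, with log2 fold changes of −0.80 for miR-505-5p and −0.17 for miR-7a-1-3p (adjusted p = 0.00189 and 0.0259 from limma), and miR-126a-3p did not pass the threshold (adjusted p = 0.956). The mean of the 3p arms is led by the most variable member, miR-30d-3p, with an SD of 0.23 in Dgcr8+/- mice. This arm was detected in only 7 WT and 5 Dgcr8+/- mice, so the r of the 3p list rests in part on values not above background.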

How the data were processed

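Total RNA (100 ng per mouse) from the LV wall of 8 WT and 8 Dgcr8+/- mice was labelled with Cy3 and hybridised to 1-colour Agilent mouse miRNA arrays (4415 probes, 56430 miRNA spots per array). The authors deposited each array's scanner output, in which the intensity of every spot is a background-corrected signal without normalization between arrays, and a table of the total signal intensity per miRNA, which equals the totals of the scanner files. The submitters' processing notes name Feature Extraction 10.5.1.1, while the file headers give 10.7.3.1. The number of arrays limits the precision.

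From the spot intensities, those carrying an outlier mark were dropped, spots were averaged per probe, probes were quantile-normalized as in the study's methods, probes were averaged per miRNA, values under 1 were set to 1 and log2 was taken. Genotypes were compared with limma 3.58.1 in R 4.3.3 over 495 miRNAs detected on at least 8 arrays, with a threshold of 0.05 on the Benjamini-Hochberg adjusted p. Tested on simulated data for this comparison (495 miRNAs, 200 changed by 0.4 to 1 on the log2 scale), it called 198 of the 200 and 9 of the 295 unchanged ones. The members changed by less, from −0.18 to 0.25, so recovery at their sizes was not tested. The simulated noise was independent between miRNAs and held no slide or scale differences between arrays. Exact permutation tests used all 12870 groupings, correlations 100000 resamples.

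Named miRNAs were the 9 members, all other miR-30 names on the array, those sharing a member's seed, and the 3 with the highest correlation to the 5p and the 3p mean. The members, pairs and marker lists were chosen with earlier results of these data known. No sample was left out, and no column of another series was present. The labels give no litters, so whether replicate numbers pair the mice is not known, and the main tests treated them as unpaired. Alternatives covered scaling, background correction, filters, probe summary, the deposited table, the slide and replicate number as blocks, and each array left out.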

Additional observations from a re-analysis of the deposited data

Results flagged for a closer look

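Of 40 groups of 8 mice examined (the 9 members and 11 pair differences in each genotype), 2 held a mouse far from the rest, and chance alone flags about 1 in 20 groups. Both came from Dgcr8+/- replicate 2, the array with the lowest hybridisation spike-ins. Its miR-30c-2-3p log2 signal was 4.50, against 4.75 to 4.98 in the other Dgcr8+/- mice. Its miR-30c-5p minus miR-30c-2-3p difference was 7.23, against 6.75 to 6.91 in the others. With this array left out, miR-30c-2-3p had a log2 fold change of 0.04 in place of −0.01 (adjusted p = 0.376 from limma).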

How the results depend on the processing

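Each value was recomputed with 1 choice changed at a time, except that for pair differences the slide and replicate blocks also replaced the permutation test by limma. For pairs, both blocks and leaving out WT replicate 6 with Dgcr8+/- replicate 2 were added after seeing the data, as were all settings for correlated arms. Without normalization between arrays 9 members were lower and 0 higher, and the log2 fold changes of miR-30a-5p, miR-30a-3p, miR-30b-5p, miR-30c-5p and miR-30d-5p were −0.32, −0.30, −0.39, −0.42 and −0.24. With the labelling spike-ins 6 were lower and 0 higher, and the same members were at −0.31, −0.30, −0.38, −0.41 and −0.24. Keeping outlier-marked spots left 0 members lower, and the deposited table left 2 higher. In the other alternatives that use all arrays, members lower and higher stayed within 1.5 times of 1 and 4, and leaving out each array gave 1 lower and 3 to 4 higher. MiR-30c-5p gained a call with the 75th percentile (0.12) and normexp (0.05). Among members past neither threshold as reported the sign turned, for miR-30c-2-3p to 0.16 (75th percentile, then past the threshold), 0.018 (cyclic loess), 0.0047 (normexp), 0.0042 (outlier marks kept) and 0.038 (without WT replicate 6 and Dgcr8+/- replicate 2, added), and with 1 array left out its range was −0.031 to 0.038. For miR-30d-3p it turned to 0.13 (75th percentile), 0.038 (brightest probe), 0.36 (deposited table) and 0.0094 (without both arrays), with −0.062 to 0.036 leaving out 1 array, and for miR-30e-3p to 0.0067 (brightest probe).

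Of the 11 pair differences 8 passed as reported, 5 without normalization, 4 with outlier marks kept and 6 to 8 with 1 array left out. Scaling to the 75th percentile divides each array by 1 factor, which drops out of a pair difference. For pairs it therefore repeats the result without normalization and is not a further check. The changes that turned sign were miR-30c-5p minus miR-30c-2-3p (−0.043 without normalization and with the 75th percentile), miR-30a-5p minus miR-30a-3p (0.0094, normexp), and, in the deposited table, miR-30d-5p minus miR-30d-3p (−0.084) and miR-30a-3p minus miR-30d-3p (−0.18). MiR-30d-3p minus miR-30e-3p turned to 0.14 (without normalization and with the 75th percentile), 0.013 (normexp), 0.056 (outlier marks kept), 0.025 (median of probes), 0.45 (deposited table) and 0.017 (without both arrays), with −0.044 to 0.050 leaving out 1 array. MiR-30a-5p, miR-30d-5p and miR-30b-5p against their 5p partners (miR-30e-5p, miR-30e-5p and miR-30d-5p) and miR-30a-3p minus miR-30e-3p kept direction and call in all 9 alternatives, 3 of them added, and with each array left out. Among these 9, the 75th percentile repeats the result without normalization. Correlated arms numbered 2, and 1 with normexp, 1 with the median of probes and 1 to 2 with 1 array left out. With normexp and with the median of probes, the miR-30e arms lost their call. The 2 with the 75th percentile were other pairs, miR-30a and miR-30e in place of miR-30d and miR-30e. The r of the miR-30a arms turned to 0.69 (75th percentile, past the threshold), 0.43 (median of probes) and, with 1 array left out, ranged from −0.40 to 0.14. With the replicate block, miR-30b-5p lost its call (0.09, adjusted p = 0.0683 from limma) and no other member's call changed. Same-numbered mice correlated from −0.14 to 0.50 and 2 of 8 Dgcr8+/- mice correlated best with their own number. The causes were not tested.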
